A study of Homo sapiens with 4 samples.

Results

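Homologous recombination, the Fanconi anemia pathway and DNA damage signalling were followed in CaSki cells, a cervical squamous carcinoma line that carries human papillomavirus, after lentiviral expression of the zinc finger protein ZNF750. The genes were taken from a list of 37. A probe set was kept when the platform annotation gave it exactly 1 symbol and that symbol was on the list, and every probe set of a gene was kept. This gave 71 probe sets of 32 genes among 54675 probe sets in the table. RBBP8, BRCA2, FANCA and FANCD2 were not analysed here, and ATRIP was not used because its 3 probe sets also carry the symbol of another gene. RNA from bulk cultures was hybridized to Affymetrix HG-U133 Plus 2.0 arrays, 2 from cells expressing ZNF750 and 2 from cells expressing GFP as the control. Both groups were CaSki cells transduced by lentivirus, grown in DMEM that the labels list with 0% fetal bovine serum. The promoter of the constructs, selection and whether lines were clonal or pooled are not given in the sources used here. The arrays are called biological duplicates without a statement of how cultures were made, so p-values measure the spread between these arrays, which may be technical.

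In homologous recombination a broken DNA end is trimmed by nucleases, and the single strand then invades an intact sister copy under the control of BRCA1, PALB2 and BRCA2. The Fanconi pathway detects crosslinks between DNA strands, attaches ubiquitin to the FANCD2-FANCI pair, and hands the lesion to nucleases and to recombination. ATM and ATR are the kinases that sense breaks and stalled forks, and CHEK2 and CHEK1 carry their signals to the cell cycle. Many of these genes are transcribed most in dividing cells, around S and G2 phase.

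Array-level measures were as follows. Across probe sets, Pearson's r was 0.99679 between the ZNF750 arrays, 0.99717 between the GFP arrays and between 0.99218 and 0.99368 across groups. These are correlations across probe sets, which are not independent replicates. For ACTB, the log2 difference between 3′ and 5′ control probe sets, which grows as RNA is shorter or labelled less far, was 3.56 ± 0.29 in the ZNF750 arrays and 2.92 ± 0.15 in the GFP arrays (SD, n = 2 each). For GAPDH it was 0.823 ± 0.037 in the ZNF750 arrays and 0.621 ± 0.0097 in the GFP arrays (SD). The part of these group differences in the results was not tested. ZNF750 itself has 1 probe set, which lay at 2.23 and 2.29 in the ZNF750 arrays, against 2.13 and 2.37 in the GFP arrays, with a difference of 0.0037 ± 0.11 (limma SE, adjusted p = 0.992). Where its probes lie was not used here, and a transgene may lack that stretch, so the group labels remain unchecked by it. Of the squamous epithelial markers, 5 of 8 were measured, all 5 had a probe set above the median level of 5.47, and 2 were called higher. A probe set above that level was also found for 2 of 6 measured fibroblast genes, 1 of 2 leukocyte genes and 2 of 3 endothelial genes. Lying above that level therefore does not identify a cell type. Of 23 fibroblast, 6 leukocyte and 8 endothelial marker probe sets, limma called 0 in either direction, with 3 fibroblast ones higher and 0 lower at an unadjusted p under 0.05. The summed log2 level of the 23 fibroblast probe sets was 99.99 to 100.8 in the ZNF750 arrays and 96.2 to 98.4 in the GFP arrays, and its part in the results was not tested. RMA values have no zero, so none of these markers could be called absent.

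Recombination and Fanconi genes moved both ways and by small amounts. Of the 71 probe sets, 9 were called higher and 8 lower in the ZNF750 arrays (limma, adjusted p under 0.05 over all probe sets), and 54 were not called. These are 12.7% and 11.3% of the probe sets, beside 4.30% called higher and 7.19% called lower, 11.5% in all, among the 54613 probe sets tested. Probe sets above the median level are called more often, and 55 of the 71 lie there. Of those 55, 15 were called, beside 20.3% of all probe sets above that level; 16.4% were higher and 10.9% lower, beside 6.70% and 13.6% of the 27307 probe sets above the median level. The largest difference in either direction was 0.76 log2 units in size. The median over all 71 was -0.02, against 0.03 over all probe sets. Among all calls, 62.6% were lower. That share depended on scaling and was 54.2% with cyclic loess, 53.1% with quantile normalization applied again and 46.2% with arrays centred on brighter probe sets. In 16 probe sets both ZNF750 arrays lay above both GFP arrays, and in 21 both lay below, which is 22.5% and 29.6%, beside 29.9% and 24.3% of all probe sets.

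By gene, 9 of 32 had a probe set called higher, 7 had one called lower, 0 had both and 16 had none. Among all 19775 genes, 8.11% had a probe set called higher and 12.8% one called lower. A probe set was called higher for XRCC2, RAD50, PALB2, RMI1, BRCA1, BLM, TOPBP1, BARD1 and MDC1. A probe set was called lower for FANCB, CHEK1, BRIP1, ATM, NBN, FANCI and RAD51C, of which CHEK1 and RAD51C were read in opposite directions by other probe sets. The calls rest on all 4 arrays and on the variance prior. Without an intensity trend in the prior, 0 member probe sets were called higher and 1 lower. All 17 kept their sign there and with 1 array left out at a time, but this could not be otherwise. The prior leaves a difference unchanged, and the groups overlap in 0 of the called member probe sets. In bulk RNA, fewer cells expressing a gene and less RNA per cell cannot be told apart.

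**Figure D1:**
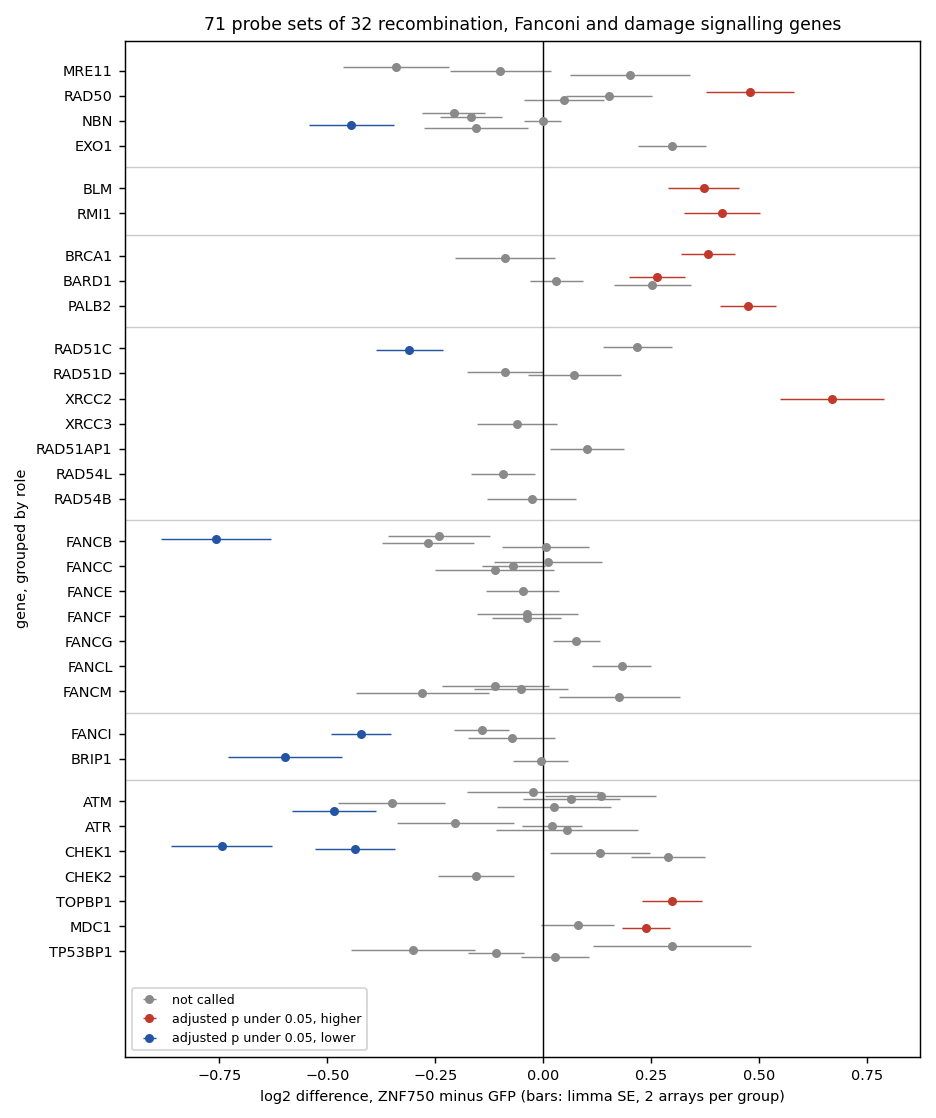
Log2 difference (ZNF750 minus GFP, horizontal axis) of the 71 probe sets of 32 genes, grouped by role, with limma's standard error as bars (2 arrays per group). The 9 red points were called higher and the 8 blue points lower, and the grey points of the same gene often lie on the other side of 0 or near it.

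The BRCA1 axis joins end trimming to strand invasion, and each of its 3 measured genes had a rise. PALB2, the partner that bridges BRCA1 to BRCA2, is read by 1 probe set (219530_at), which lay at 9.08 and 9.10 in the ZNF750 arrays, against 8.67 and 8.57 in the GFP arrays. That is a log2 difference of 0.47 ± 0.065 (limma SE, n = 2 arrays per group, adjusted p = 0.00523), or 1.39-fold. The groups did not overlap, which holds for every called member probe set and is no further support. BRCA1, a ubiquitin ligase subunit and recombination mediator, lay at 9.70 and 9.83 in the ZNF750 arrays, against 9.41 and 9.35 in the GFP arrays on 204531_s_at, a rise of 0.38 ± 0.063 (adjusted p = 0.0101). Its other probe set, 211851_x_at, overlapped between groups, at 6.39 and 6.41 in the ZNF750 arrays, against 6.63 and 6.35 in the GFP arrays. BARD1, the obligate partner of BRCA1 in the ligase, rose by 0.26 ± 0.065 on 205345_at, with 8.50 and 8.55 in the ZNF750 arrays, against 8.25 and 8.28 in the GFP arrays (adjusted p = 0.0422). On 242655_at BARD1 differed by 0.25 (adjusted p = 0.120) and on 227545_at by 0.03, with a 95% interval from -0.11 to 0.17. Of the 6 probe sets of the axis, 0 were called lower, and 0 were lower at an unadjusted limma p under 0.05. With the mean of a gene's probe sets, BRCA1 gave 0.15 (adjusted p = 0.231) and BARD1 0.18 (adjusted p = 0.0847), neither of which passed.

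The helicase BLM and its partner RMI1, which dissolve the crossed DNA intermediates of recombination, both rose, each on its only probe set. BLM (205733_at) lay at 7.85 and 7.70 in the ZNF750 arrays, against 7.42 and 7.39 in the GFP arrays, a rise of 0.37 ± 0.082 (adjusted p = 0.0288). RMI1 (218979_at) lay at 10.25 and 10.03 in the ZNF750 arrays, against 9.82 and 9.63 in the GFP arrays, a rise of 0.41 ± 0.089 (adjusted p = 0.0260). For both genes the groups did not overlap, which again is no further support. RMI2, another subunit of the same complex and no member of the list, had a probe set called higher, by 0.43 ± 0.056 (adjusted p = 0.00459). It was taken from 25 other recombination genes, of which 5 (20%) had a probe set called higher and 2 (8%) one called lower. Over all genes these shares were 8.11% and 12.8%.

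Among the genes that trim and hold DNA ends, the MRE11-RAD50-NBN complex had 1 probe set called higher and 1 called lower. RAD50, the coiled-coil ATPase of the complex, rose on 208393_s_at, with 7.99 and 7.71 in the ZNF750 arrays, against 7.38 and 7.36 in the GFP arrays (0.48 ± 0.10, adjusted p = 0.0249). The other RAD50 probe sets differed by 0.15 and 0.05 and were not called, and the mean of all 3 gave 0.23 (adjusted p = 0.0872), which did not pass. NBN, the subunit that recruits ATM, had 5 probe sets. One of them, 217299_s_at, fell to 6.64 and 6.74 in the ZNF750 arrays, against 7.22 and 7.04 in the GFP arrays (-0.45 ± 0.099, adjusted p = 0.0286). The brightest, 202907_s_at, lay at 11.09 and 11.05 in the ZNF750 arrays, against 11.09 and 11.07 in the GFP arrays, with a 95% interval of the difference from -0.10 to 0.099. The remaining NBN probe sets lay between -0.21 and -0.16. MRE11, the nuclease, gave -0.34, -0.10 and 0.20 on its 3 probe sets, none called. EXO1, the nuclease of long-range trimming, just missed the threshold. It lay at 7.68 in both ZNF750 arrays, against 7.43 and 7.32 in the GFP arrays (0.30 ± 0.079, adjusted p = 0.0512). EXO1 passed after cyclic loess (adjusted p = 0.0245) and when tested as 1 probe set per gene (adjusted p = 0.0350). It did not pass with replicate number in the model (adjusted p = 0.0594) or without an intensity trend (adjusted p = 0.116).

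**Figure D2:**
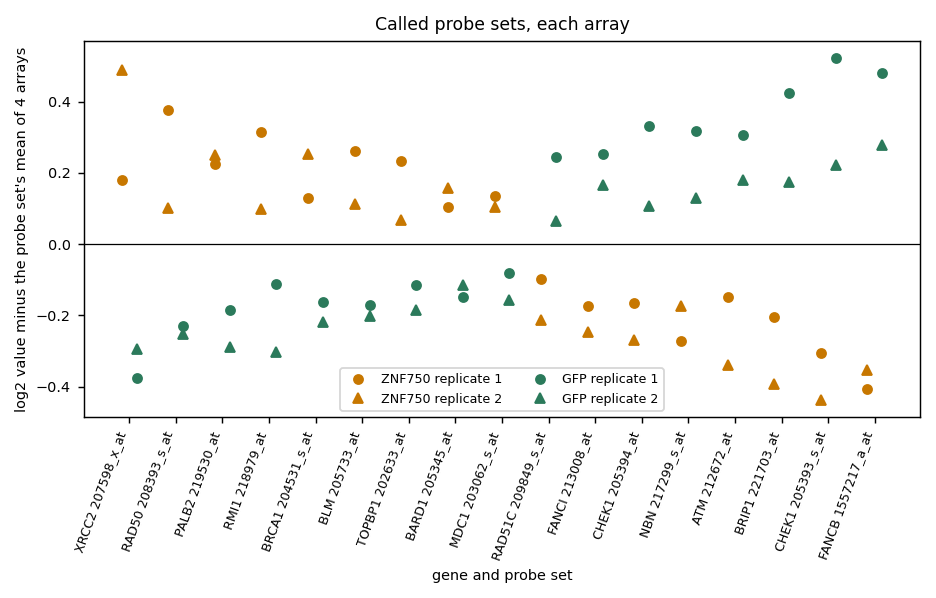
Log2 value of each of the 17 called probe sets on each of the 4 arrays, relative to that probe set's mean over the arrays (vertical axis, log2 units). Both ZNF750 arrays lie on the opposite side of 0 from both GFP arrays for each of the 17, and the replicates of a group differ by up to 0.31 log2 units. The 17 were called on these same arrays, so their separation follows from the selection and is no further support. Of all 54613 probe sets, 29.9% had both ZNF750 arrays above both GFP arrays and 24.3% had both below.

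Among the genes that act in strand invasion and exchange, 7 genes and 9 probe sets were measured, with 1 higher and 1 lower. XRCC2 had the largest rise of all members: its 1 probe set (207598_x_at) lay at 6.62 and 6.93 in the ZNF750 arrays, against 6.07 and 6.15 in the GFP arrays. This was 0.67 ± 0.12 log2 units, or 1.59-fold (adjusted p = 0.0141). The probe set carries the suffix _x_at, for probes that can hybridize to other transcripts. RAD51C, which acts in a complex with XRCC3, was read in opposite directions. On 209849_s_at it fell to 9.11 and 8.998 in the ZNF750 arrays, against 9.45 and 9.27 in the GFP arrays (-0.31 ± 0.078, adjusted p = 0.0446). On 206066_s_at it lay at 8.48 and 8.54 in the ZNF750 arrays, against 8.38 and 8.20 in the GFP arrays (0.22 ± 0.080, adjusted p = 0.136). That higher value passed after a second quantile normalization (adjusted p = 0.0497), but not after cyclic loess (adjusted p = 0.0556). Groups were apart on both probe sets, and no direction is given for the gene. The fall did not pass after cyclic loess (adjusted p = 0.0521). RAD51D, XRCC3, RAD54L, RAD54B and RAD51AP1 were not called. Their differences lay between -0.09 and 0.10, and the widest 95% interval among them, that of RAD51D 37793_r_at, ran from -0.18 to 0.32.

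The Fanconi core complex is the ubiquitin ligase of the pathway, with FANCL as its catalytic subunit and FANCM as the anchor on DNA. Of its 16 probe sets 0 were called higher by limma (1 at an unadjusted p under 0.05, that of FANCL) and 1 lower. The call was FANCB 1557217_a_at, at 3.66 and 3.71 in the ZNF750 arrays, against 4.54 and 4.34 in the GFP arrays. The difference was the largest among all members at -0.76 ± 0.13 (adjusted p = 0.0105), but the probe set is dim, where RMA understates differences and detection is not known. The other FANCB probe sets gave -0.27, -0.24 and 0.01, and the brightest by its mean, 243597_at, was the one at 0.01. FANCL lay at 10.32 and 10.25 in the ZNF750 arrays, against 10.19 and 10.01 in the GFP arrays (0.18 ± 0.069, adjusted p = 0.142). It passed after cyclic loess (adjusted p = 0.0325), but not with replicate number in the model (adjusted p = 0.0793) or without an intensity trend (adjusted p = 0.313). FANCC, FANCE, FANCF, FANCG and FANCM had differences between -0.28 and 0.18 without a call. For the core subunits FANCE and FANCG, each with 1 probe set, the 95% intervals of the difference were -0.25 to 0.15 and -0.048 to 0.20.

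Downstream of the core, FANCI, the partner that is clamped on DNA together with FANCD2, fell on 213008_at. It lay at 8.22 and 8.15 in the ZNF750 arrays, against 8.65 and 8.57 in the GFP arrays (-0.42 ± 0.070, adjusted p = 0.0102). Its other probe sets gave -0.14 and -0.07 and were not called. BRIP1, the BRCA1-bound helicase also known as FANCJ, fell on the dim probe set 221703_at, with 5.25 and 5.06 in the ZNF750 arrays, against 5.88 and 5.63 in the GFP arrays (-0.60 ± 0.13, adjusted p = 0.0284). On the bright BRIP1 probe set 235609_at the values were 9.34 and 9.21 in the ZNF750 arrays, against 9.30 and 9.26 in the GFP arrays, a difference of -0.01 with a 95% interval from -0.16 to 0.14. One BRIP1 probe set therefore separated the groups and the other did not. Of these 5 probe sets 0 were higher, and 0 were higher at an unadjusted limma p under 0.05.

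Damage kinases and their mediators gave 2 rises and 3 falls among 21 probe sets. CHEK1, the effector kinase of ATR, had the widest disagreement between probe sets of any member, 1.03 log2 units. It fell on 205393_s_at, at 6.69 and 6.55 in the ZNF750 arrays, against 7.52 and 7.21 in the GFP arrays (-0.74 ± 0.12, 1.68-fold lower, adjusted p = 0.00844). On 205394_at it also fell, with 7.94 and 7.84 in the ZNF750 arrays, against 8.44 and 8.22 in the GFP arrays (-0.44 ± 0.092, adjusted p = 0.0245). The brightest CHEK1 probe set, 238075_at, lay the other way. It had 8.59 and 8.56 in the ZNF750 arrays, against 8.40 and 8.17 in the GFP arrays (0.29 ± 0.086, adjusted p = 0.0755), and this passed as higher after cyclic loess (adjusted p = 0.0248), a second quantile normalization (0.0215) and centring on brighter probe sets (0.0155). Under those scalings CHEK1 was called in both directions, so the array gives no single direction for this gene. With replicate number in the model (adjusted p = 0.0703) or without an intensity trend (adjusted p = 0.173), 238075_at did not pass. ATM, the kinase of double-strand breaks, had 6 probe sets, of which 212672_at fell to 7.09 and 6.90 in the ZNF750 arrays, against 7.54 and 7.42 in the GFP arrays (-0.49 ± 0.097, adjusted p = 0.0203). The other ATM probe sets gave between -0.35 and 0.13 without a call, 4 of them dim.

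The mediators TOPBP1 and MDC1 each had a probe set that rose. TOPBP1, which activates ATR, lay at 9.95 and 9.78 in the ZNF750 arrays, against 9.60 and 9.53 in the GFP arrays on its only probe set 202633_at (0.30 ± 0.069, adjusted p = 0.0330). MDC1, the scaffold that reads phosphorylated histone H2AX at breaks, lay at 9.74 and 9.71 in the ZNF750 arrays, against 9.52 and 9.45 in the GFP arrays on 203062_s_at (0.24 ± 0.056, adjusted p = 0.0359). Its other probe set differed by 0.08, and the mean of both gave 0.16 (adjusted p = 0.131), which did not pass. ATR, CHEK2 and TP53BP1 had no called probe set. The brightest ATR probe set, 209903_s_at, gave 9.33 and 9.21 in the ZNF750 arrays, against 9.31 and 9.20 in the GFP arrays, with a 95% interval from -0.14 to 0.18. CHEK2, the effector kinase of ATM, gave -0.16, with a 95% interval from -0.36 to 0.049. Both its ZNF750 arrays lay below both GFP arrays, as was so for 24.3% of all probe sets. TP53BP1, which holds back end trimming, gave values between -0.30 and 0.30 on 4 probe sets, the extremes on dim ones.

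Probe sets of the same gene often disagreed. Of the 14 genes with 1 probe set, 5 were called, and these were the rises of PALB2, BLM, RMI1, XRCC2 and TOPBP1. All 7 genes with a probe set called lower, CHEK1 and RAD51C among them, had several probe sets, and in 0 of the 11 called genes with several probe sets was every probe set called. With 1 probe set per gene, the brightest, 9 members were higher and 2 lower, RAD51C and ATM, beside 7.79% higher and 10.2% lower among all genes. With the mean of a gene's probe sets, 6 were higher and 0 lower (limma), beside 5.27% and 8.09% of all genes. Those 6 were BLM, EXO1, PALB2, RMI1, TOPBP1 and XRCC2, each with 1 probe set, for which the mean is that probe set, and 0 of the 18 members with several probe sets passed in either direction. BRIP1, FANCB and FANCI then gave -0.30, -0.32 and -0.21, with adjusted p-values of 0.0508, 0.0536 and 0.0677. Of the 18 members with several probe sets, 11 had differences on both sides of 0, and the median spread between probe sets of a gene was 0.45. Over the 10523 genes with several probe sets, 53.8% had both signs and the median spread was 0.27, not matched for level or number of probe sets. The positions of the probes in the transcripts were not used. Whether isoforms, cross-hybridization or the larger ACTB and GAPDH 3′ minus 5′ differences in the ZNF750 arrays bear on these disagreements was not tested.

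The promoters of the 6 members with the largest called differences show what lies upstream of the genes that moved most. The sequences are from RefSeq (GRCh38.p14), from 250 bases before to 50 after the transcription start, 5′ to 3′ in the direction of the gene, and for CHEK1 and ATM the first of several listed starts is shown. Capitals mark matches to an E2F word (TTTGGCGC, TTTGCCGC, TTTCGCGC or TTTCCCGC) or to a word of the cell cycle homology region, CHR (TTTGAA or TTCGAA), searched on both strands. TTCGAA reads the same on both strands, and no match of one family can hold a match of the other.
FANCB promoter, chrX:14873020-14873319, minus strand: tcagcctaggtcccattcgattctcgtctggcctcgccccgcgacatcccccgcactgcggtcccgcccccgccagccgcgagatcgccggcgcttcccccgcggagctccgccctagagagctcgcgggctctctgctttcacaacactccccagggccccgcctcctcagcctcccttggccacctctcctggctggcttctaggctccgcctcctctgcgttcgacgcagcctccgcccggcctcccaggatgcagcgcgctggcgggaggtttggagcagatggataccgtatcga
CHEK1 promoter, chr11:125625979-125626278, plus strand: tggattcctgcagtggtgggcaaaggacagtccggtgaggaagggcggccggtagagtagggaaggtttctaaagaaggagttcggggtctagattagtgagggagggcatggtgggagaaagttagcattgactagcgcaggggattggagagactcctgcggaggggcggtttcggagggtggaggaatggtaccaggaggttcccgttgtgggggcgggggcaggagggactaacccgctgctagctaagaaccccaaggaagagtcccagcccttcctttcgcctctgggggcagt
XRCC2 promoter, chr7:152676092-152676391, minus strand: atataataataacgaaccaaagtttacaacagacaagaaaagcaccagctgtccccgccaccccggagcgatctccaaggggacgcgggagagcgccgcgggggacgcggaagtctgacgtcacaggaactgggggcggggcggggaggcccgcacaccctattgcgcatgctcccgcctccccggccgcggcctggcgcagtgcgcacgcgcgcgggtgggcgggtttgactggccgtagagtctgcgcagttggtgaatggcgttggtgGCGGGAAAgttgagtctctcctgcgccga
BRIP1 promoter, chr17:61863479-61863778, minus strand: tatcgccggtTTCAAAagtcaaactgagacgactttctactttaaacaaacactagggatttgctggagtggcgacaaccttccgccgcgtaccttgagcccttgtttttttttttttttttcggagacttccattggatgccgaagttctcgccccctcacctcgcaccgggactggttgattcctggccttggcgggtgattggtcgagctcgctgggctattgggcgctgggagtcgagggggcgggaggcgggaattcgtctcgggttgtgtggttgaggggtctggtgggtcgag
ATM promoter, chr11:108222817-108223116, plus strand: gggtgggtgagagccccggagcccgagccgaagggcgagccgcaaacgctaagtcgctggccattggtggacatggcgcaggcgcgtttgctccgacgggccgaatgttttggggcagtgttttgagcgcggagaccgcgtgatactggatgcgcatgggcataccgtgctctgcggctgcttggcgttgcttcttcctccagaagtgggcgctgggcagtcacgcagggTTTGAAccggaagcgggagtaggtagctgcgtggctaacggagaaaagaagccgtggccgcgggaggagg
RAD50 promoter, chr5:132556727-132557026, plus strand: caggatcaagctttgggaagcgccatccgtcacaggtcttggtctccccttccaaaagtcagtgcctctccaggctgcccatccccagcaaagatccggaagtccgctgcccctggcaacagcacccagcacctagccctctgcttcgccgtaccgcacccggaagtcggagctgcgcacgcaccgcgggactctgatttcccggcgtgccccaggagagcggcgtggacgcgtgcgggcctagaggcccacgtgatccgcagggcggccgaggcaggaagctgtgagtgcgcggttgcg
XRCC2, which had the largest rise, holds 1 E2F word on the opposite strand at position 22 after the start. The promoters of BRIP1 and ATM, which fell on 1 probe set each, hold a CHR word at positions -240 and -20. The other 3 hold neither, which says only that these letters are not in this window. Of the 32 measured members 29 matched a promoter, and 5 of them (17.2%) held an E2F word, against 3.99% of 27305 genes. Those 5 were RMI1, XRCC2 and TOPBP1, with a rise, and EXO1 and FANCC, without a call. CHR words stood in 4 of the 29 (13.8%), against 19.5% of all genes: in BRIP1 and ATM, in MDC1, with a rise, and in FANCC, without a call. A match is a description and no evidence that a factor binds there.

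Other genes of the same pathways also had calls in both directions. Of 70 measured neighbours, 10 had a probe set called higher and 8 lower, and 7.19% of their 167 probe sets were higher and 5.39% lower, beside 4.30% and 7.19% of all probe sets. For the 123 above the median level the shares were 9.76% and 6.5%, beside 6.70% and 13.6% of all probe sets above it. By gene 14.3% had a probe set called higher and 11.4% one called lower, beside 8.11% and 12.8% of all genes. Rises and falls below are those of called probe sets, and 146 of the 167 probe sets were not called. Among other recombination genes, 5 of 25 had a probe set called higher. SFR1, a recombination accessory factor, rose by 0.79 ± 0.071 (adjusted p = 0.00128), and the others were RMI2, PSMC3IP, RAD54L2 and EME1. ZSWIM7 and MCM9 fell. In the Fanconi pathway WDR48, the cofactor of the enzyme that removes ubiquitin from FANCD2 and FANCI, rose on both called probe sets (0.47 and 0.43), UHRF1 rose by 0.30, and FAAP20, a core complex subunit, fell by 0.58 on the log2 scale. ERCC1 and REV1 also fell. In damage signalling CLSPN, which couples ATR to CHEK1, rose by 0.34, as did HUS1 and RIF1. ABRAXAS1 (-0.59), H2AX (-0.37) and SHLD1 (-0.62 and -0.60) fell, the SHLD1 probe set at -0.62 being dim.

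Cell cycle markers were counted in the same fit. Of 25 G2/M marker genes 22 had a probe set called lower, and of their 52 probe sets 0 were called higher by limma (0 at an unadjusted p under 0.05), with a median of -0.34. Of 19 S phase marker genes 5 (26.3%) had a probe set called higher and 3 (15.8%) lower, with a median of 0.08 over 38 probe sets. For G2/M genes the shares were 0% and 88%, and over all genes 8.11% and 12.8%. With the recombination and Fanconi members at a median of -0.02, each list is given by its own values, and the part of cell cycle distribution in the members' differences was not tested.

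**Figure D3:**
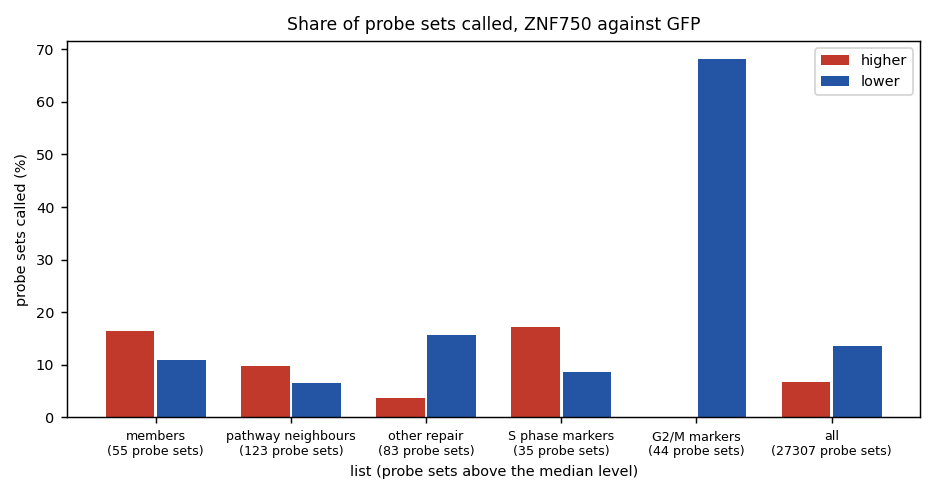
Percent of probe sets above the median level that were called higher (red) or lower (blue) in ZNF750 against GFP arrays, by list, with all such probe sets at the right. Members stood at 16.4% higher and 10.9% lower, G2/M markers at 0% and 68.2%, and all 27307 probe sets at 6.70% and 13.6%.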

How the data were processed

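The authors deposited 1 table of log2 values made with RMA, per the submitters' processing notes (version not given in the sources used here), with 54675 probe sets and 4 arrays. RMA corrects background, quantile normalizes across arrays and summarises probe sets, so low signals are compressed. No detection calls were used, and the small number of arrays limits precision. Symbols came from the supplied platform annotation: 41091 probe sets had 1 symbol, 1801 several and 11721 none. After leaving out 62 controls, 54613 probe sets entered 1 linear model per probe set (limma 3.58.1, R 4.3.3) with lmFit and eBayes (an intensity trend, 2 residual degrees of freedom), ZNF750 minus GFP, with Benjamini-Hochberg adjustment over all of them and calls at an adjusted p under 0.05. Errors are limma's SE unless marked SD. An exact permutation test of 2 against 2 arrays cannot go below 0.333. Dim means a mean under the median of 5.47. Members, lists and the rule for named genes were chosen with earlier results of these data known. The rule gave array values for the 15 largest called differences, further called probe sets of each role and the brightest probe set of uncalled genes with a textbook role, and named other genes where a count was 5 or fewer. Alternatives changed the variance prior, scaling, filters, threshold, summary per gene and arrays used. The count over all probe sets was added after seeing the data. The fit was tested on simulated data.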

Additional observations from a re-analysis of the deposited data

How the results depend on the processing

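Changes of prior, threshold or filter leave a difference unchanged, and leaving out 1 array cannot reverse groups that do not overlap. Signs kept in those settings are therefore no support. All 17 called member probe sets, whose groups do not overlap, kept their sign wherever they were tested. Their calls depended on the variance prior and the arrays: without an intensity trend 0 member probe sets were higher and 1 lower (0 and 1 genes), at an adjusted p under 0.01 there were 1 and 1 (1 and 1 genes), and with 1 array left out 0 to 1 higher and 0 lower (0 to 1 and 0 genes), the 1 being XRCC2 without ZNF750 replicate 1. Over all probe sets the counts were 2348 higher and 3927 lower, 520 and 754 without the trend, 704 and 1474 at the stricter threshold, 1230 and 1845 without _x_at and _s_at probe sets, 4176 higher with centring on brighter probe sets, and from 8 to 267 higher and 1 to 661 lower with 1 array left out, the lowest with either GFP array left out. Without _x_at and _s_at probe sets 44 member probe sets remained in the table, 4 higher and 5 lower (4 genes higher). By the brightest probe set 2 member genes were lower, and by the mean of probe sets 0. Since those fits hold 1 value per gene, they give no count of probe sets.

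The same settings moved the other lists. Without the trend, 1 neighbour gene was higher and 2 lower, 0 and 2 other repair genes, 1 and 0 S phase genes, and 11 G2/M genes lower. At an adjusted p under 0.01 these were 5 and 5, 0 and 3, and 2 and 1. Without _x_at and _s_at probe sets 6 neighbours were higher and 3 lower, 3 other repair genes lower, 3 S phase genes higher and 1 lower, and 13 G2/M genes lower. Higher S phase genes numbered 9 with cyclic loess, 9 with a second round of quantile normalization, 8 with centring and 8 with dim probe sets left out. By the brightest probe set 1 other repair gene was higher and 5 lower, and 0 S phase genes lower. By the mean of probe sets 6 neighbours were higher and 4 lower, 1 other repair gene higher, and 1 S phase gene lower. With 1 array left out, neighbours were 0 to 1 higher and 0 to 1 lower, other repair genes 0 higher and 0 to 1 lower, S phase genes 0 to 1 and 0 to 1, and G2/M genes 0 to 13 lower.

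Replicate numbers are shared by the groups, but the labels do not say that they mark a shared culture, and the deviations correlated at 0.134 over probe sets. With the replicate block, 9 member probe sets were higher and 8 lower, 16 of the 17 calls kept their direction, NBN 217299_s_at was lost (adjusted p = 0.0599) and MRE11 205395_s_at was added as lower (adjusted p = 0.0305). The members' median stayed between -0.036 and 0.030 under every setting tried, and it crossed 0. The median level over member probe sets, a different quantity, was 7.22 in the ZNF750 arrays and 7.32 in the GFP arrays, a difference of -0.099, with a pooled SD of 0.064 between arrays of a group. The causes were not tested.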

Other observations

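Repair pathways outside recombination were counted in the same fit. Rises and falls are again those of called probe sets, and 89 of the 109 probe sets of these lists were not called. Among all genes, 12.8% had a probe set called lower and 8.11% one called higher. Of 11 measured genes listed under end joining, which rejoins breaks without a template, 5 (45.5%) had a probe set called lower. By limma 0 were called higher (2 probe sets higher at an unadjusted p under 0.05). The genes called lower were XRCC4 (-0.55 ± 0.091, adjusted p = 0.00979), a ligase cofactor, TDP1 (-0.54), XRCC5 (-0.40), LIG4 (-0.39) and TDP2 (-0.32). The 25 probe sets of this list had a median of -0.08, and 20 were not called. The gene shares are not matched for level or number of probe sets. Of the 18 probe sets above the median level 27.8% were lower and 0% higher, beside 13.6% and 6.70% of all such probe sets. The XRCC5 probe set lay close to that level, at 5.43 to 5.86 over the 4 arrays. Of 16 nucleotide excision repair genes, ERCC8 fell on 3 probe sets (-0.74, -0.61 and -0.44) and GTF2H1 on 2 (-0.76 and -0.67). The ERCC8 probe set at -0.61 and the GTF2H1 probe set at -0.67 are dim. GTF2H5 rose (0.60) on a very dim probe set, at 2.96 and 2.85 in the ZNF750 arrays, against 2.10 and 2.50 in the GFP arrays. RAD23B fell on 1 probe set (-0.35) and rose on another (0.21). Of 17 base excision genes, APEX2 (-0.46), APTX (-0.29) and FEN1 (-0.28) fell and UNG rose (0.25). In mismatch repair MSH6 fell on 1 probe set (-1.24 ± 0.21, adjusted p = 0.0110). That probe set lay at 6.08 and 5.88 in the ZNF750 arrays, against 7.58 and 6.87 in the GFP arrays, which were far apart. PMS1 rose on 2 probe sets (0.68 and 0.63), the one at 0.68 being dim. Of the 15 mismatch repair probe sets, 12 were not called. Over these lists together, 13.8% of 109 probe sets were lower and 4.59% higher, beside 7.19% and 4.30% of all probe sets. Among the 83 above the median level the shares were 15.7% lower and 3.61% higher, beside 13.6% and 6.70% of all probe sets above that level.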
